A study of Homo sapiens with 6 samples.

Results

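The genes described here are 45 genes of the hypoxia response and of glycolysis. They were chosen by name from textbook membership, with earlier results of these data known. They are subunits of the hypoxia-inducible factors (HIF) and their oxygen sensors, HIF-linked secreted factors and other HIF-linked genes. Glucose and lactate transporters, glycolytic enzymes and regulators of glycolytic flux complete the set. All probe sets annotated to these symbols alone were taken, 71 without array controls, of 22277 probe sets on the array. They cover 42 of the 45 genes. CA9, SLC16A1 and SLC16A3 were not analysed here. Of the 42 genes, 39 passed the filter on dim probe sets (a mean of at least 51.6 signal units over the 6 arrays), of 7554 genes tested in all. EGLN3, STC2 and PFKFB4 fell below it.

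The samples were 3 populations of the human triple-negative breast cancer line MDA-MB-231, with 2 arrays each: the isolates S1a and S1b, labelled as isolated populations of seeder cells (tumour cells that return from the circulation to a tumour), and the parental line. All were grown subconfluent in DMEM with 10% serum, and the labels name no low-oxygen treatment and no genetic change. Each isolate is 1 isolated population, and no isolated population other than seeder cells was measured, so an effect of isolation cannot be told apart from one tied to seeding. The arrays of a population are called biological replicates, with no separate cultures named. The p-values therefore reflect only how far arrays of 1 population lay apart, a spread that may be technical.

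HIF is a transcription factor made of an oxygen-labile alpha subunit (HIF1A or EPAS1, which encodes HIF-2 alpha) and a stable partner, ARNT. With oxygen present, the prolyl hydroxylases EGLN1 to EGLN3 mark the alpha subunit for destruction, so that HIF activity is set mainly at the protein level, which arrays do not measure. In low oxygen HIF raises genes of glucose uptake, glycolysis, angiogenesis and matrix processing, and many cancer cells keep glycolysis high with oxygen present as well.

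All 7 mesenchymal markers passed the filter. With both isolates averaged against the parental line, 1 of them was higher and 2 were lower by the test used below. That is 42.9% called, beside 47.6% of all genes tested. ZEB1, the higher one, lay between 1818 and 2363 signal units on the isolate arrays and at 1491 and 1359 on the parental arrays. Vimentin (VIM), an intermediate filament of mesenchymal cells, lay between 18450 and 21390 signal units on the isolate arrays and at 21210 and 27240 on the parental arrays. CAV1, LGALS1 and CD44 lay below both parental arrays on every isolate array. Their isolate values were 10150 to 11470, 14460 to 16380 and 6814 to 7889 units. The parental values were 13510 and 13060, 17860 and 21020, and 8344 and 8207. AXL and MSN overlapped between isolate and parental arrays. Of 6 markers of hormone receptor or ERBB2 positive breast cells, ESR1, PGR, FOXA1 and CDH1 were below the filter. EPCAM lay between 346.5 and 464.2 units on the isolate arrays and at 406 and 494.7 on the parental arrays, and ERBB2 between 147.5 and 188 on the isolate arrays and at 218.1 and 257.6 on the parental arrays. Markers of leukocytes, endothelial cells and fibroblasts were dim, with 9 of 13 below the filter, but the 5 fibroblast markers summed to 182 to 206 units in S1a and 174 to 188 in S1b, against 329 to 395 in the parental arrays. The 3 leukocyte markers summed to 89.5 to 146 units in S1a and 61.1 to 64.2 in S1b, against 139 to 158 in the parental arrays, and the 5 endothelial markers to 163 to 189 in S1a and 133 to 137 in S1b, against 86.8 to 142. Their part in the results was not tested. Less RNA per cell and fewer cells that express a gene cannot be told apart in such bulk samples. Median signals were 87.6 to 91.7 units on the isolate arrays and 98.6 and 106 on the parental arrays. For the array controls of GAPDH, the 3' signal divided by the 5' signal gave 0.976 to 0.998 on the isolate arrays and 1.06 and 1.09 on the parental arrays.

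Against the parental line, with both isolates averaged, 11 of the 39 genes were higher and 19 were lower (limma, adjusted p under the threshold of 0.05), and 9 did not pass. The genes that fell include VEGFA, EPAS1, P4HA2, INSIG2, BHLHE40 and SLC2A1, and those that rose include ADM, BNIP3L, HK2, PFKFB3 and ALDOC. Of all 7554 genes tested, 47.6% passed in this comparison, 23.5% higher and 24% lower, against 76.9% of the 39 genes, 28.2% higher and 48.7% lower. Because the genes were chosen with earlier results of these data known, these shares do not test the set. The share called depended on signal. With all genes cut into 10 bins of mean signal, 55.6% passed in the brightest bin, which holds 14 of the 39 genes, 63.2% in the next and 23.5% in the dimmest. The median log2 change of the 39 genes was -0.19, beside -0.02 for all genes tested. All 4 isolate arrays lay above both parental arrays for 11 of the genes and below both for 20, and such a separation held for 57.3% of all genes tested. A change of at least 2-fold that passed was found for 8 of the 39, beside 8.91% of all genes tested.

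The share of higher calls depended on the scaling. With each array centred on its median signal, the median change of all genes became 0.17 and the 39 genes gave 14 higher and 13 lower calls. Under quantile normalization they gave 12 higher and 15 lower calls.

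By design the change in S1a and the change in S1b use the same parental arrays. In S1a 10 genes were higher and 16 lower, where 40.3% of all genes passed (20% higher, 20.3% lower). In S1b 11 were higher and 17 lower, where 42.9% of all genes passed (21.4% higher, 21.5% lower). Between the isolates themselves, S1b against S1a, 2 genes were lower and 0 were higher by limma's adjusted p, where 1.97% of all genes passed (0.477% higher, 1.5% lower). At an unadjusted limma p under 0.05, 3 were lower and 2 higher.

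To show the sequences beside the changes, the 250 bases before the annotated start are given for the genes with the largest rise and the largest fall among the glycolytic enzymes and among the other genes, where the gene has a single annotated start. They were taken from RefSeq (GRCh38.p14) and are written 5' to 3' on the strand of the gene. Capitals mark the core letters of the HIF response element, searched as ACGTG and GCGTG on both strands. ADM, which rose, lies at chr11:10304823-10305072, plus strand. P4HA2, which fell, lies at chr5:132227092-132227341, minus strand. ALDOC, an enzyme that rose, lies at chr17:28576896-28577145, minus strand. GAPDH, an enzyme that fell, lies at chr12:6535014-6535263, plus strand.
ADM: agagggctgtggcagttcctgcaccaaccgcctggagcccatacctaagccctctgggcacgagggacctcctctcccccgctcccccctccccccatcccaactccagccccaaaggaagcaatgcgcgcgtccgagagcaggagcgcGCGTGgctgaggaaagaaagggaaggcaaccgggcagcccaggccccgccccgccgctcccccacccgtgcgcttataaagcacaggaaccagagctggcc
P4HA2: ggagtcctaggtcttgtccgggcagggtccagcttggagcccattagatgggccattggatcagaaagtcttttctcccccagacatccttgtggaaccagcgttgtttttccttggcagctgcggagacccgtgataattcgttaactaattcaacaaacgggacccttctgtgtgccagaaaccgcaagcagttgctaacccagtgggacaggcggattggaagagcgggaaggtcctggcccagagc
ALDOC: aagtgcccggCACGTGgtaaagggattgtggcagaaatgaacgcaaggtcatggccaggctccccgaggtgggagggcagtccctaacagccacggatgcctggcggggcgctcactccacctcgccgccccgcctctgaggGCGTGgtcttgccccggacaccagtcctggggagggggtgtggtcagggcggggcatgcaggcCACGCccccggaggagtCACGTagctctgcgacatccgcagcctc
GAPDH: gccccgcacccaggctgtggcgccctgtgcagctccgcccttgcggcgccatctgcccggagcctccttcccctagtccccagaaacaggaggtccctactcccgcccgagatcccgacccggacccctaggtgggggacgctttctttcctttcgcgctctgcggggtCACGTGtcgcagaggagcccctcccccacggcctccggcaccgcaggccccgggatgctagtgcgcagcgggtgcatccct

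The ADM window holds a single core, starting 101 bases before the start of the gene. The P4HA2 window holds 0 cores. In the ALDOC and GAPDH windows a CACGTG, which reads ACGTG on both strands and is also the E-box letters bound by basic helix-loop-helix factors, starts 240 and 81 bases before the start. ALDOC holds further cores 108, 45 and 28 bases before its start. Windows were found for 39 of the 45 genes, 70 windows in all, since some genes have several starts. Of these windows 61.4% held a core, beside 43.2% of all 35093 windows of that length, which include noncoding genes. A core was found in at least 1 window for 9 of 10 genes with a window that rose, 12 of 15 that fell and 7 of 9 that did not pass. A match is a run of letters and not a known binding site, and the absence of a match says only that these letters are not in the window.

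The HIF subunits were lower in the isolates. EPAS1 had 728.9 and 695.5 signal units in S1a and 362.6 and 368.8 in S1b, against 1332 and 1238 in the parental arrays. All isolate arrays lay below the parental ones, and S1b lay below S1a. The log2 change was -1.32 ± 0.088 (limma adjusted p = 2.49e-06; errors are SE from the fit, with 4 arrays of the isolates and 2 of the parental line). The dimmer EPAS1 probe set, below the filter, had 16.9 to 25.91 units on the isolate arrays and 45.9 and 59.52 on the parental ones.

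HIF1A had 6220 and 5987 units in S1a and 5795 and 6074 in S1b, against 7924 and 8649 in the parental arrays. The groups did not overlap, and the change was a small one, -0.46 ± 0.074 on the log2 scale (limma adjusted p = 0.000659). It was -0.27 with median centring (limma adjusted p = 0.0406). ARNT, the shared partner, had 99.53 to 129.4 units on the isolate arrays and 153.7 and 202.9 on the parental arrays, a change of -0.59 ± 0.20 (limma adjusted p = 0.0337). The ARNT call ended with any array but parental replicate 2 left out, with adjusted p-values of 0.0509 to 0.218, and under both other scalings. Its value was -0.40 without parental replicate 1, and its other probe sets gave smaller changes, down to -0.18.

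Of the oxygen sensors, EGLN1, the main HIF prolyl hydroxylase, did not pass (-0.19 ± 0.12, limma adjusted p = 0.22). EGLN3, a hydroxylase that is itself a HIF target, was dim: 10.59 and 5.238 units in S1a and 14.56 and 15.57 in S1b, against 35.72 and 62.94 in the parental arrays. Its isolate values lay below the parental ones but it was not tested.

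**Figure D1:**
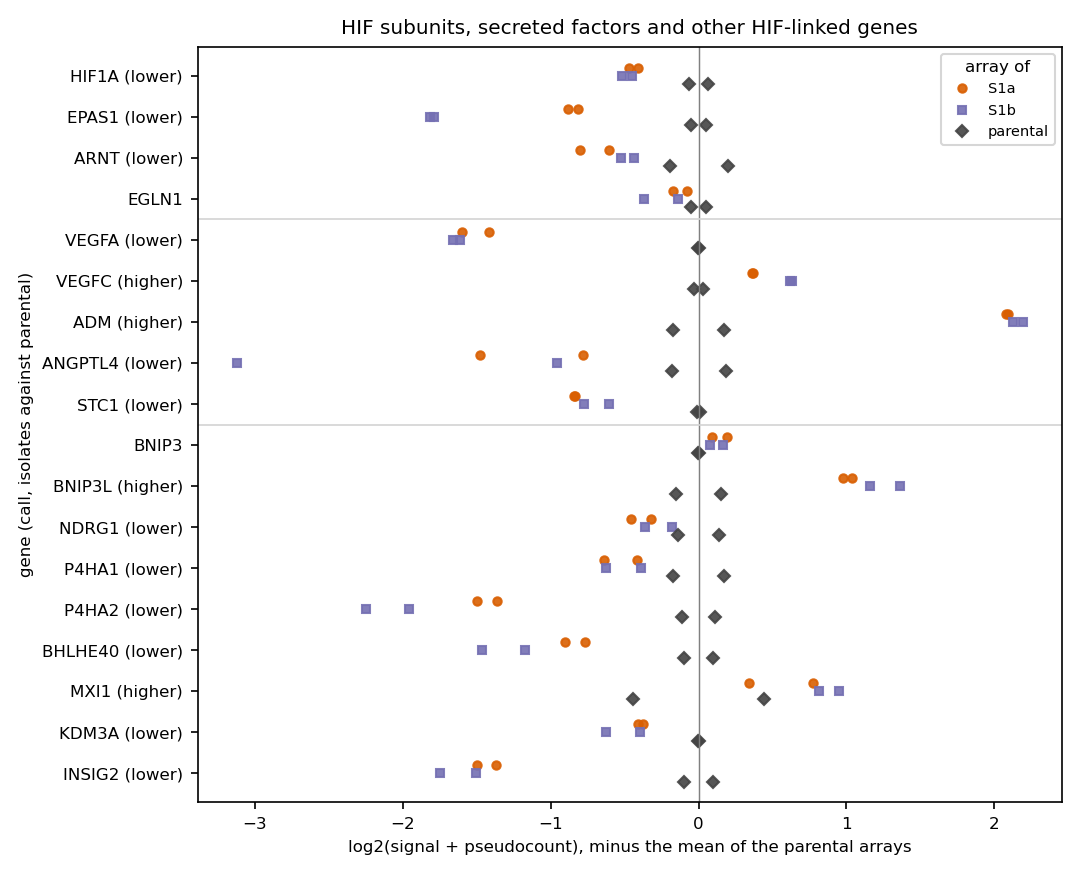
HIF subunits and sensors, secreted factors and other HIF-linked genes: each point is 1 array, as log2(signal + pseudocount) minus the mean of the 2 parental arrays, for S1a (circles), S1b (squares) and parental (diamonds), with the call for both isolates against parental beside the gene. ADM stands far to the right (2.12) and P4HA2, VEGFA, INSIG2 and EPAS1 far to the left, while the parental arrays of MXI1 lie apart from each other.

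Secreted factors moved in opposite directions. ADM, which encodes the vasodilator peptide adrenomedullin, had 7594 and 7517 units in S1a and 8118 and 7763 in S1b, against 1572 and 2003 in the parental arrays. It rose by 2.12 ± 0.096 on the log2 scale (limma adjusted p = 2.13e-07), or 4.36-fold, the largest rise among the 39 genes. VEGFA, the angiogenic growth factor, had 1506 and 1328 units in S1a and 1271 and 1315 in S1b, against 4007 and 4038 in the parental arrays. These textbook HIF targets thus lay on opposite sides of the parental line, each with no overlap between arrays.

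The VEGFA change was -1.57 ± 0.077 (limma adjusted p = 3.35e-07), a 2.97-fold lower signal. Its other 3 probe sets were lower as well, with changes of -1.26 to -1.47 in a fit of all probe sets. The lymphatic growth factor VEGFC had 924.6 and 919.9 units in S1a and 1102 and 1115 in S1b, against 731.3 and 702.5 in the parental arrays. VEGFC rose by 0.49 ± 0.079 (limma adjusted p = 0.000647), the reverse of its relative VEGFA.

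STC1, a glycoprotein hormone, had 726.4 and 723.5 units in S1a and 758.4 and 853.4 in S1b, against 1309 and 1291 in the parental arrays. It fell by 0.76 ± 0.085 on the log2 scale (limma adjusted p = 6.44e-05), and its 3 probe sets all fell, by 0.61 to 0.99. ANGPTL4, an inhibitor of lipoprotein lipase, was dim, with 34.8 and 58.84 units in S1a and 8.461 and 51.72 in S1b, against 91.12 and 118.5 in the parental arrays. All isolate arrays lay below both parental ones. The ANGPTL4 mean of 60.57 units passed the filter only through the parental arrays, with a mean of 104.8 there and 38.46 in the isolates. A lower call was thus favoured by the filter, and it counts among the 19 lower genes and the 8 changes of at least 2-fold. The ANGPTL4 change was -1.58 ± 0.56 on the log2 scale (limma adjusted p = 0.0391). With dim isolate signals raised to the floor of 51.6 units, the isolate mean was at least 1.95-fold lower than the parental mean. This bound was not tested. The call ended under quantile normalization (limma adjusted p = 0.0776), with no filter (0.0827), without the variance trend and with array weights. It also ended without S1a replicate 1, parental replicate 1 or parental replicate 2. Without S1b replicate 1, whose signal was lowest, the adjusted p was 0.0496. STC2, a relative of STC1, lay between 4.343 and 48.06 units on the isolate arrays and at 7.839 and 10.79 on the parental arrays, with no order between the groups.

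Among the other HIF-linked genes, 6 of 9 were lower and 2 higher (66.7% and 22.2%), beside 24% and 23.5% of all genes tested. With median centring the NDRG1 and KDM3A calls ended and BNIP3 passed as higher. P4HA2, a catalytic subunit of the collagen prolyl hydroxylase, had the largest fall of the 39 genes: 459.1 and 417.7 units in S1a and 302.3 and 245.8 in S1b, against 1094 and 1281 in the parental arrays. S1b lay lowest and parental highest, with no overlap between any of the groups. The change was -1.76 ± 0.12 (limma adjusted p = 2.98e-06), 3.4-fold lower. The related isoform P4HA1 changed by -0.52 ± 0.13 (limma adjusted p = 0.00885), with 413.3 to 491.6 units on the isolate arrays and 572.4 and 727.3 on the parental arrays. Without parental replicate 1 the P4HA1 value was -0.34 (limma adjusted p = 0.0778), and it was -0.33 with median centring.

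INSIG2, which holds back sterol synthesis in the endoplasmic reticulum, had 215.2 and 196 units in S1a and 195 and 164 in S1b, against 524.3 and 600.7 in the parental arrays. It fell by 1.53 ± 0.14 on the log2 scale (limma adjusted p = 1.82e-05). BHLHE40, a transcriptional repressor, had 321.4 and 353.1 units in S1a and 265.6 and 215.7 in S1b, against 646.1 and 562.6 in the parental arrays. BHLHE40 fell by 1.08 ± 0.13 (limma adjusted p = 0.000113), and by 1.48 on its dimmer probe set. Both genes were thus lower on every isolate array than on either parental array.

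BNIP3L, a receptor for the removal of mitochondria, moved the other way, with 3946 and 4113 units in S1a and 4466 and 5149 in S1b, against 2223 and 1799 in the parental arrays. It rose by 1.13 ± 0.098 (limma adjusted p = 1.27e-05) and by 0.86 on its dimmer probe set. Its relative BNIP3, with the same role, was at 4632 to 5016 units on the isolate arrays and at 4380 and 4410 on the parental arrays. The BNIP3 arrays did not overlap, but the difference of 0.13 ± 0.071 did not pass (limma adjusted p = 0.157), and it was 0.32 with median centring (limma adjusted p = 0.0145).

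The rest changed less. The histone demethylase KDM3A changed by -0.45 ± 0.11 (limma adjusted p = 0.00801), a call that ended with median centring (-0.26, limma adjusted p = 0.0904). The stress-responsive gene NDRG1 changed by -0.33 ± 0.11 (limma adjusted p = 0.0294). NDRG1 lost its call with median centring, without S1a replicate 1 (-0.30), without S1b replicate 2 (-0.28) and without parental replicate 2 (-0.19, limma adjusted p = 0.23). MXI1, a repressor that competes with MYC for MAX, had 418.7 to 642.9 units on the isolate arrays and 450.1 and 242.2 on the parental arrays, which overlap. Its change of 0.72 ± 0.22 (limma adjusted p = 0.0198) was 0.28 without parental replicate 2 (limma adjusted p = 0.188) and 1.16 without parental replicate 1. Without S1b replicate 2 the MXI1 adjusted p was 0.0647.

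Of the glucose transporters, both with a probe set were lower. SLC2A1, which encodes GLUT1, had 841.5 and 828.5 units in S1a and 763.5 and 895.5 in S1b, against 1182 and 1614 in the parental arrays. The parental arrays differed from each other by more than the isolate arrays did, yet both lay above them. The SLC2A1 change was -0.73 ± 0.12 (limma adjusted p = 0.000921), and -0.58 on the dimmer probe set, whose call did not pass (adjusted p = 0.103 without shared-probe suffixes). SLC2A3, which encodes GLUT3, had 162.8 to 187.7 units on the isolate arrays and 213.5 and 284.7 on the parental arrays, a change of -0.49 ± 0.17 (limma adjusted p = 0.0341). The SLC2A3 call ended with any array but parental replicate 2 left out (limma adjusted p of 0.0699 to 0.257) and under both other scalings. It was -0.28 without parental replicate 1. The other SLC2A3 probe sets did not pass (-0.45 ± 0.23, limma adjusted p = 0.136, and -0.15 ± 0.17, 0.513, the second with overlapping arrays), nor did the mean of probe sets (-0.36, 0.0666).

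**Figure D2:**
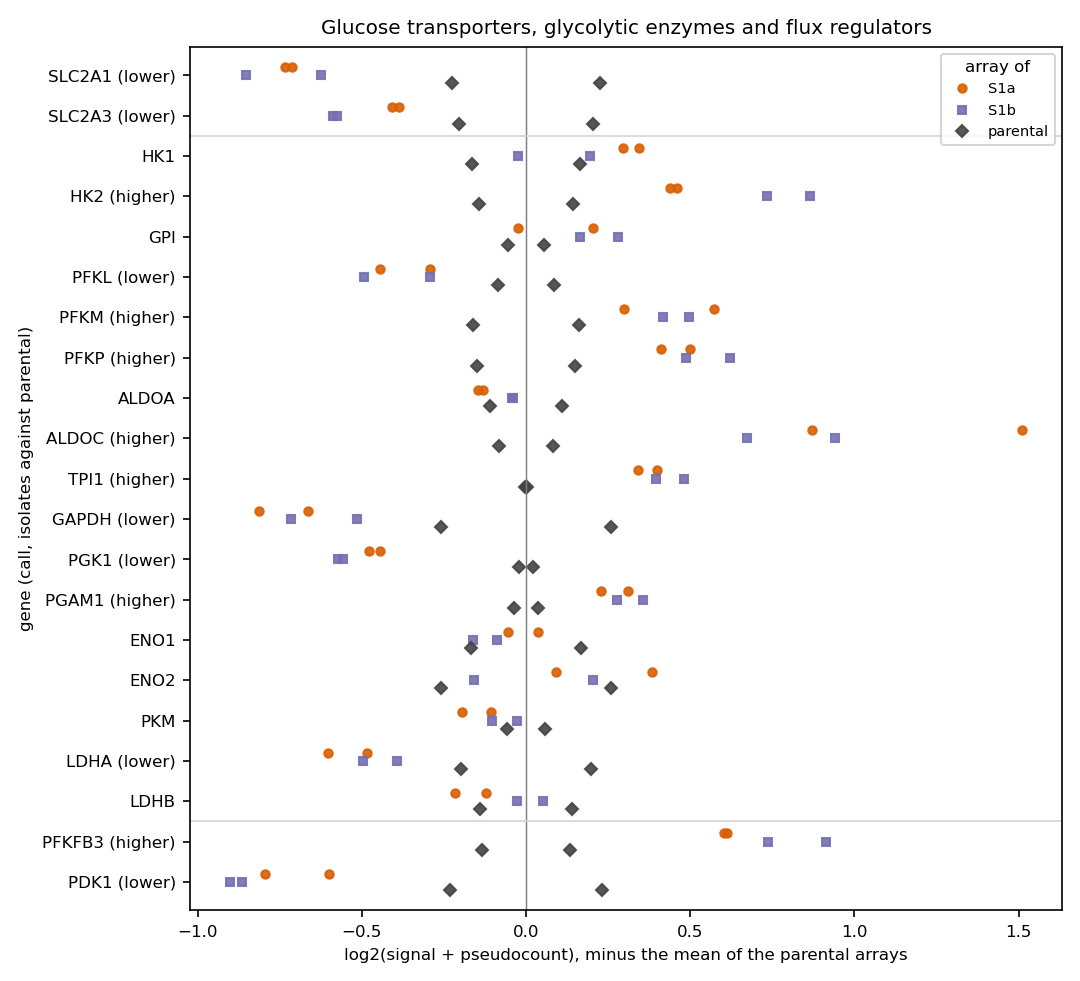
Glucose transporters, glycolytic enzymes in pathway order and flux regulators: each point is 1 array, as log2(signal + pseudocount) minus the mean of the 2 parental arrays, for S1a (circles), S1b (squares) and parental (diamonds). SLC2A1 and SLC2A3 lie to the left and HK2, PFKP, ALDOC and PFKFB3 to the right, and the parental arrays of GAPDH and LDHA lie apart from each other.

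The glycolytic enzymes were split, with 6 of 17 higher, 4 lower and 7 not passing, and a median log2 change of 0.13, beside -0.02 for all genes tested. Of the 17 enzymes 58.8% passed (35.3% higher, 23.5% lower), beside 47.6% of all genes (23.5% higher, 24% lower). In the brightest bin of all genes, where many of these enzymes lie, 55.6% passed. HK2, PFKP, PFKM, ALDOC, TPI1 and PGAM1 were higher, and PFKL, GAPDH, PGK1 and LDHA were lower. Hexokinase traps glucose in the cell. Its inducible form HK2 had 709 and 719.4 units in S1a and 953.8 and 870.8 in S1b, against 576.5 and 472.9 in the parental arrays. HK2 rose by 0.62 ± 0.10 on the log2 scale (limma adjusted p = 0.000808), while the ubiquitous HK1 did not pass (0.20 ± 0.10, limma adjusted p = 0.133). The dimmer HK2 probe set had the same sign but did not pass (0.77 ± 0.30, limma adjusted p = 0.0563). The HK1 value passed with median centring (0.39) and without parental replicate 2 (0.37). GPI, the isomerase of the next step, did not pass either (0.16 ± 0.087, limma adjusted p = 0.169), though it did with median centring (0.34).

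Phosphofructokinase, which commits sugar to glycolysis, changed in opposite directions by isoform. The platelet form PFKP had 4566 and 4860 units in S1a and 5291 and 4818 in S1b, against 3095 and 3814 in the parental arrays, a rise of 0.50 ± 0.094 (limma adjusted p = 0.00158). The muscle form PFKM rose by 0.45 ± 0.12 (limma adjusted p = 0.00951), with 838.1 to 1014 units on the isolate arrays and 608.8 and 761 on the parental arrays. Without parental replicate 1 the PFKM value was 0.29 (limma adjusted p = 0.0771). The liver form PFKL was lower on every isolate array, at 339.2 to 390 units against 450.9 and 508.2 in the parental arrays. Its change was -0.38 ± 0.12 (limma adjusted p = 0.0241), with both probe sets lower. The PFKL call ended under quantile normalization (-0.32), with median centring (-0.19), without S1a replicate 1 (limma adjusted p = 0.0743), without S1b replicate 2 (0.0688) and without parental replicate 2 (0.132).

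Of the aldolases, which split the sugar, ALDOC had 141.7 and 222.9 units in S1a and 122.9 and 148.9 in S1b, against 80.27 and 71.2 in the parental arrays. S1a replicate 2 was highest and no isolate array reached down to the parental ones. ALDOC rose by 1.00 ± 0.24 on the log2 scale (limma adjusted p = 0.00591). The main isoform ALDOA had overlapping arrays and did not pass (-0.09 ± 0.082, limma adjusted p = 0.39), although it passed without parental replicate 1 (-0.20, limma adjusted p = 0.0482).

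The triose isomerase TPI1 had 5726 and 5968 units in S1a and 6313 and 5944 in S1b, against 4514 and 4529 in the parental arrays. It rose by 0.40 ± 0.07 (limma adjusted p = 0.00104), and its second bright probe set rose as well (0.29 ± 0.071). A further, dim probe set had the opposite sign (-0.27 ± 0.26) and did not pass, so the TPI1 probe sets disagree. The TPI1 call ended with the mean of probe sets (0.14, limma adjusted p = 0.258) and without shared-probe suffixes.

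GAPDH, which carries out the first energy-yielding step, had 16990 and 18810 units in S1a and 20890 and 18150 in S1b, against 24930 and 35690 in the parental arrays. The parental arrays differed strongly from each other, and both lay above the isolates. The change was -0.68 ± 0.14 (limma adjusted p = 0.00243), with all 3 probe sets lower. It was -0.28 under quantile normalization (limma adjusted p = 0.00184) and -0.42 without parental replicate 2 (limma adjusted p = 0.00439). The 3 array control probe sets of GAPDH, not tested, lay between 17950 and 24090 units on the isolate arrays and between 22750 and 32260 on the parental arrays.

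PGK1, the kinase of the next step, had 7706 and 7890 units in S1a and 7293 and 7223 in S1b, against 10580 and 10890 in the parental arrays. It fell by 0.51 ± 0.07 on the log2 scale (limma adjusted p = 0.000238), or 1.43-fold, and its 4 probe sets all fell, by 0.47 to 0.64. Its replicate arrays lay close together, and the fall was 0.33 with median centring (limma adjusted p = 0.0144). The mutase PGAM1 rose by 0.29 ± 0.075 (limma adjusted p = 0.00925), with 10430 to 11400 units on the isolate arrays and 8667 and 9132 on the parental arrays. Its call ended without S1a replicate 2 (0.27, limma adjusted p = 0.0566), and the value was 0.48 with median centring.

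Of the next steps, which form and use phosphoenolpyruvate, no enzyme passed. Neither enolase passed, with ENO1 at -0.07 ± 0.10 (limma adjusted p = 0.615) and ENO2 at 0.13 ± 0.17 (0.556). ENO1 has no settled direction, since it was 0.19 under quantile normalization (limma adjusted p = 0.00728) and -0.24 without parental replicate 1 (0.0299). The pyruvate kinase PKM did not pass (-0.11 ± 0.075, limma adjusted p = 0.261).

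LDHA, the lactate dehydrogenase subunit that favours lactate, had 15110 and 16400 units in S1a and 16260 and 17490 in S1b, against 19990 and 26350 in the parental arrays. As for GAPDH, parental replicate 2 stood highest. The change was -0.49 ± 0.11 (limma adjusted p = 0.00494). It was -0.21 under quantile normalization (limma adjusted p = 0.023) and -0.29 without parental replicate 2 (0.0138), and the call ended with median centring (-0.31, 0.0789). LDHB, the other subunit, had overlapping arrays (-0.08 ± 0.094, limma adjusted p = 0.52), probe sets of opposite sign, and passed without parental replicate 1 (-0.22, limma adjusted p = 0.0439).

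Among regulators of glycolytic flux, PFKFB3, which makes the activator of phosphofructokinase, had 653.1 and 656.5 units in S1a and 810.9 and 717.1 in S1b, against 389.6 and 470.7 in the parental arrays. It rose by 0.72 ± 0.11 (limma adjusted p = 0.000445). PDK1, a mitochondrial kinase that inhibits pyruvate dehydrogenase, had 110.4 and 95.97 units in S1a and 91.33 and 88.91 in S1b, against 199.9 and 143.7 in the parental arrays. These changes were opposite in sign, and in both genes the arrays did not overlap. The PDK1 change was -0.79 ± 0.22 (limma adjusted p = 0.0137), and -0.56 without parental replicate 1 (limma adjusted p = 0.118). PFKFB4 was dim, at 3.196 to 11.64 units on the isolate arrays and 13.53 and 5.702 on the parental arrays.

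**Figure D3:**
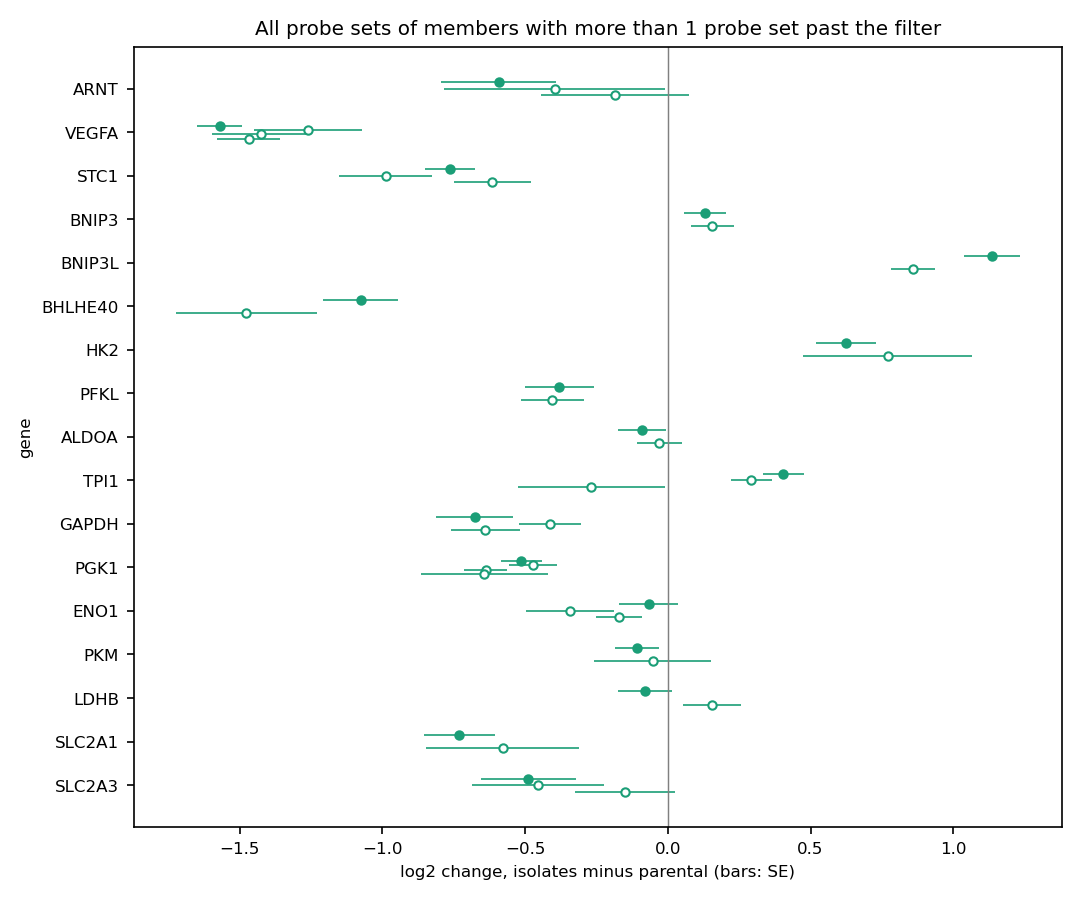
Log2 change of both isolates against parental for every probe set past the filter, in the 17 genes with more than 1 such probe set; filled points are the probe sets that stand for the gene, and bars are SE. All probe sets of VEGFA, STC1, BHLHE40, GAPDH and PGK1 lie left of 0 and those of BNIP3L and HK2 right of it, while those of TPI1 and LDHB lie on both sides.

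In 15 of the 17 genes with more than 1 probe set past the filter, all probe sets had the same sign, TPI1 and LDHB being the exceptions. PGK1 and VEGFA each had 4 probe sets past the threshold in the same direction. Probe sets of a gene share the same arrays, and some share target sequence, so their agreement is not a separate replicate.

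Between the isolates, 2 of the 39 genes passed the test, and for the rest a p that misses the threshold does not show that they were alike. EPAS1 had 362.6 and 368.8 units in S1b, against 728.9 and 695.5 in S1a, a log2 change of -0.95 ± 0.10 (S1b minus S1a, 2 arrays each, limma adjusted p = 0.00158). P4HA2 had 302.3 and 245.8 units in S1b, against 459.1 and 417.7 in S1a, a change of -0.68 ± 0.14 (limma adjusted p = 0.0425). Both were lower in S1b, which also lay farther below the parental arrays.

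The P4HA2 difference lost its call when any array of S1b or S1a was left out (-0.53 to -0.82, limma adjusted p of 0.0811 to 0.268), and with the replicate number as a block (0.0798). It also lost it under quantile normalization (limma adjusted p = 0.0658), with no filter (0.0808), with the mean of probe sets (0.0541), without shared-probe suffixes (0.0518) and without the variance trend (0.198), so that it held under 7 of 17 alternatives. The EPAS1 difference lost it only without the variance trend (0.0573) among the alternatives run. BHLHE40 (-0.49 ± 0.15, limma adjusted p = 0.156) and HK2 (0.35 ± 0.12, 0.194) did not pass. Over the 39 genes the differences ran from -0.95 to 0.35.

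**Figure D4:**
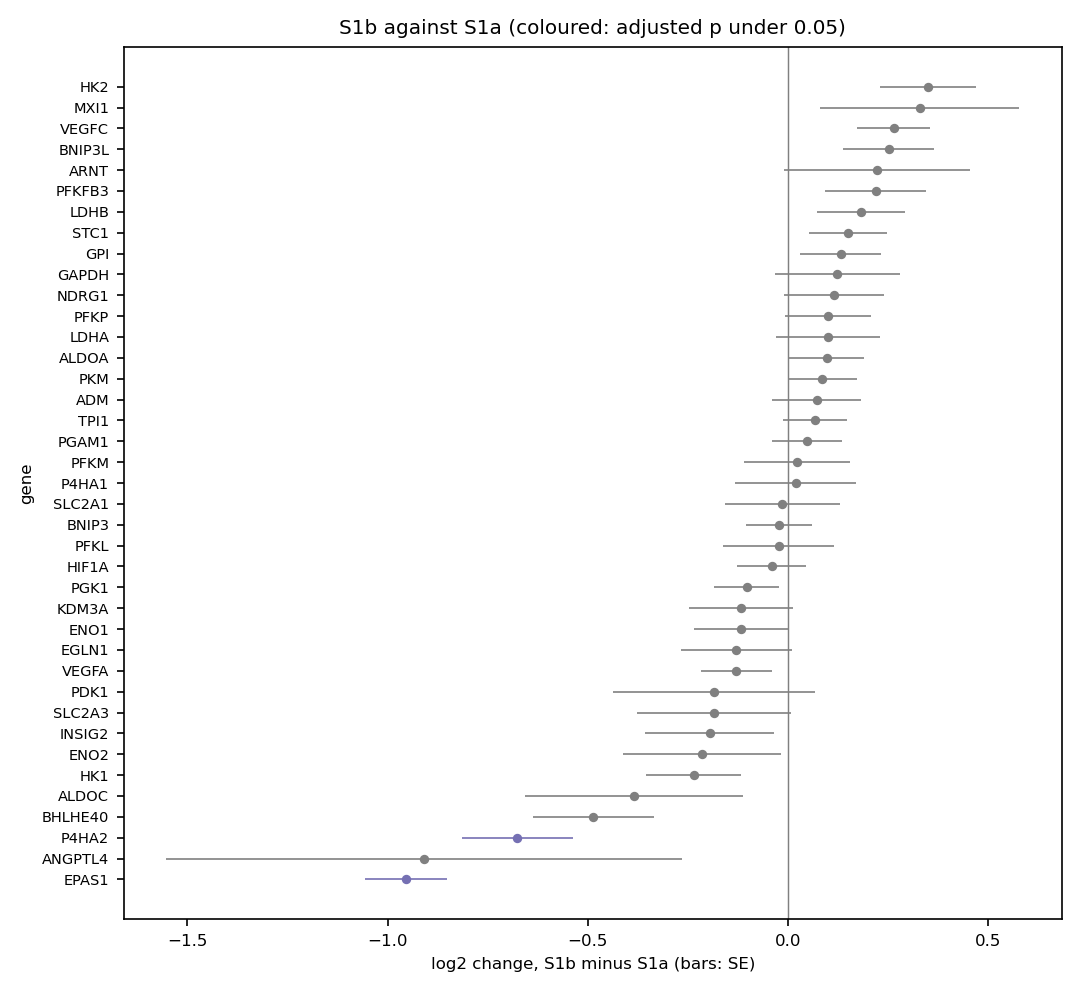
Log2 change of S1b against S1a for the 39 tested genes, in order of size, with SE bars; coloured points have an adjusted p under 0.05. EPAS1 (-0.95) and P4HA2 (-0.68) are coloured, and ANGPTL4 has the widest error bar.

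Further genes of the pathways came from lists of textbook members that were chosen with earlier results of these data known. The share of tested genes that passed was 68% for hypoxia-inducible genes, 54.5% for regulators of the HIF pathway, 60% for pyruvate dehydrogenase and its control, 62.5% for isoenzymes and carriers, 66.7% for the pentose phosphate pathway and 50% for gluconeogenesis, beside 47.6% of all genes tested. These lists hold few genes, and nothing is read from the shares. Of 25 tested hypoxia-inducible genes outside the 45, 6 were higher and 11 lower. TGFA, an EGF receptor ligand, fell by 2.41 ± 0.17 on the log2 scale (limma adjusted p = 3.86e-06), and PGM1, which links glycogen to glycolysis, by 0.79 ± 0.08 (3.86e-05). The urokinase receptor PLAUR rose by 1.58 ± 0.07 (limma adjusted p = 1.96e-07) and the collagen lysyl hydroxylase PLOD2 by 1.07 ± 0.094 (1.41e-05). The PLAUR call ended without shared-probe suffixes, where another probe set gave 0.14. With median centring the lower calls in this list numbered 6. The histone demethylase KDM4B was lower (-0.42 ± 0.13, limma adjusted p = 0.0221), but another probe set gave 0.60 (without shared-probe suffixes, adjusted p = 0.118). Its call also ended under quantile normalization (adjusted p = 0.0516), with median centring (0.177), with the mean of probe sets (-0.06, 0.763) and without S1a replicate 1 (0.0728), S1b replicate 1 (0.0547) or parental replicate 2 (0.146).

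Of 11 tested regulators of the HIF pathway, 4 were higher and 2 lower. HIF1AN, the asparagine hydroxylase that blocks HIF activity, had 282 and 273.6 units in S1a and 368.1 and 326.3 in S1b, against 159.4 and 222.2 in the parental arrays, a rise of 0.71 ± 0.16 (limma adjusted p = 0.00458). CITED2, which competes with HIF for a coactivator, rose by 0.66 ± 0.073 (limma adjusted p = 6.44e-05). ELOC and ELOB are subunits of the ubiquitin ligase that removes HIF. ELOC rose by 0.35 ± 0.07 (limma adjusted p = 0.0025), and ELOB fell by 0.60 ± 0.088 (0.000348), or by 0.29 as the mean of its probe sets.

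Among the pyruvate dehydrogenase complex, its control and the mitochondrial pyruvate carriers, 2 of 10 tested genes were higher and 4 lower. The pyruvate carrier MPC2 had 1068 and 1015 units in S1a and 1064 and 924.5 in S1b, against 2010 and 2153 in the parental arrays, a fall of 1.03 ± 0.086 on the log2 scale (limma adjusted p = 1.04e-05). The activating phosphatase PDP1 fell by 1.18 ± 0.13 (limma adjusted p = 5.84e-05) and PDHA1, the catalytic subunit, by 0.64 ± 0.075 (9.57e-05). PDHX, a structural subunit, rose by 0.56 ± 0.075 (limma adjusted p = 0.000208). The PDHA1 call ended without shared-probe suffixes (-0.16).

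Of 8 tested isoenzymes and carriers outside the 45, 1 was higher and 4 lower. The monocarboxylate transporter SLC16A7 had 282.6 and 310.6 units in S1a and 190.2 and 325.4 in S1b, against 78.15 and 100.6 in the parental arrays, a rise of 1.57 ± 0.22 (limma adjusted p = 0.00029). The intracellular glucose carrier SLC2A8 fell by 0.88 ± 0.23 (limma adjusted p = 0.0098). SLC2A6 (-0.58 ± 0.17, limma adjusted p = 0.0197) and BPGM (-0.49 ± 0.17, 0.034) were lower too. The SLC2A6 call ended under both other scalings, without S1a replicate 1 (adjusted p = 0.0648) and without parental replicate 2 (0.112). The BPGM call ended under both other scalings, without S1a replicate 2 (adjusted p = 0.0946), S1b replicate 1 (0.0951) or parental replicate 1 (0.141), and with the replicate number as a block (0.0516).

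In the pentose phosphate pathway, the branch that makes NADPH and ribose, 3 of 6 tested genes were higher and 1 lower. PGD (0.44 ± 0.10, limma adjusted p = 0.00588), PGLS (0.28 ± 0.075, 0.0113) and RPE (0.41 ± 0.13, 0.0216) rose, and TALDO1 fell by 0.49 ± 0.083 (0.00086). RPE lost its call without S1a replicate 1 (adjusted p = 0.0619), S1b replicate 2 (0.0699) or parental replicate 2 (0.112), and PGD was 0.26 without parental replicate 2. Of 4 tested gluconeogenesis genes 2 were higher, PCK2 (0.46 ± 0.11, limma adjusted p = 0.00766) and FBP1 (0.26 ± 0.09, 0.0342). The FBP1 call ended without any array but parental replicate 2 and S1a replicate 2 (adjusted p of 0.067 to 0.142) and with the replicate number as a block (0.053).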

How the data were processed

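Total RNA labelled with biotin was measured on 6 expression arrays. Each array's deposited column holds linear intensities, 1 per probe set, which the authors computed with MAS5 according to the submitters' processing notes. No MAS5 version was found in these sources. Every array had the same trimmed mean of 500.2. Of 22277 probe sets, 62 controls were left out and 19064 had 1 gene symbol in the platform annotation; symbols were updated through RefSeq gene identifiers. A gene was represented by its probe set with the highest mean. Signals were analysed as log2(signal + 3.949), the pseudocount being the 10th percentile of all signals, and probe sets with a mean below 51.6 units (40th percentile of named probe sets) were left out. Means of the 3 populations were estimated together by limma 3.58.1 (R 4.3.3), with a variance trend and 3 residual degrees of freedom. The spread of each gene was moderated toward that of all genes, with a prior of at least 7.06 degrees of freedom. P-values were adjusted by Benjamini-Hochberg over 7554 genes per contrast, with a threshold of 0.05, and the procedure was tested on simulated data. Alternatives changed the pseudocount, filter, scaling, choice of probe set, variance model, replicate block and single arrays. Same-numbered arrays did not deviate together, so no pairing was used. Neither raw scanner output nor calls of presence entered the work. Arrays have no read depth; their number limits the precision. Members, lists and the naming rule (all members; per list up to 4 called genes with the smallest p) were chosen with earlier results of these data known. KDM4B was named beyond this rule. Figures were drawn with matplotlib 3.10.9.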

Additional observations from a re-analysis of the deposited data

Results flagged for a closer look

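The changes of S1a and of S1b against the parental line differed for 2 of the 39 genes by the test of S1b against S1a. Of all genes tested, 1.97% passed there. EPAS1, the HIF-2 alpha gene, had a log2 change of -0.95 (S1b minus S1a, limma adjusted p = 0.00158): it was -1.80 in S1b and -0.85 in S1a against the parental arrays. P4HA2, the collagen prolyl hydroxylase subunit, had one of -0.68 (limma adjusted p = 0.0425), from -2.10 in S1b and -1.43 in S1a. The P4HA2 call held under only 7 of 17 alternatives, and the EPAS1 call under 16 of 17. Both S1b arrays were below both S1a arrays for each gene.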

How the results depend on the processing

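Of 30 calls in the mean of both isolates, 16 remained under all 17 alternatives that gave them a value. The same held for 10 of 26 calls in S1a, 13 of 28 in S1b and 0 of 2 in S1b against S1a. With shared-probe suffixes left out, 20 genes were tested and the calls numbered 7 higher and 7 lower for both isolates, 6 and 6 for S1a, 7 and 6 for S1b, and 1 lower for S1b against S1a. With median centring the calls numbered 13 higher and 8 lower in S1a, and 13 higher and 10 lower in S1b, so higher calls outnumbered lower ones there. In S1b against S1a the lower calls were 1 with no filter, 1 with the mean of probe sets, 1 with the replicate block and 0 without the variance trend. With single arrays left out, higher calls ran from 4 (without S1a replicate 2; 6 without S1a replicate 1) to 10 in S1a. In S1b, higher calls ran from 7 (without S1b replicate 1) to 11 and lower calls from 11 (without either S1b array) to 16. Lower calls in S1a ran from 11 to 15. In S1b against S1a, lower calls ran from 1 to 2 and higher calls stayed at 0, and for both isolates calls ran from 10 to 11 higher and 14 to 17 lower. ENO1 turned to 0.19 (0.31 in S1a) under quantile normalization, and TPI1 to -0.27 (-0.61 in S1a) and KDM4B to 0.60 without shared-probe suffixes, where other probe sets stand for them; the ENO1 cause was not tested. The block used replicate numbers that the labels do not tie to a shared culture, and the deviations of same-numbered arrays correlated at -0.096 to 0.0086. It left the calls for both isolates at 11 higher and 19 lower, and gave 9 higher and 14 lower in S1a (KDM3A, PGAM1 and PDK1 lost) and 11 higher and 16 lower in S1b (PFKL lost). A filter at the 40th percentile of all probe sets, chosen after seeing the data, gave 15 lower calls in S1a, beside 16, and left the other counts of calls as they were. With 2 arrays per population and no detection calls, dim genes could not be called absent.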
